A study of Mus musculus with 6 samples.

Results

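Ribosomal protein genes of the cytosol were examined in 3 clonal mouse B cell lines. Members were taken by gene name: Rpl or Rps followed by a digit, together with Rpsa, Rplp0, Rplp1 and Rplp2. Names with -ps (225 genes), the Rps6k kinases (10), Rps19bp1 (1) and paralogs with an l or rt suffix under 1 mean TPM (5) were left out. TPM is a gene's transcript abundance, scaled to gene length and to the same total in every library. This gave 85 of the 37315 genes in the abundance table, 50 named for the large and 35 for the small subunit. Of these, 78 carried a plain name and 7 a paralog suffix (Rpl6l, Rpl7l1, Rpl22l1, Rpl36al, Rpl37rt, Rps27l and Rps27rt). The reference annotation (GENCODE M21) called 81 of them protein coding and 4 of them processed pseudogenes: Rps3a2, Rps3a3, Rpl6l and Rpl37rt, the last a transcribed one. All 85 passed the filter of 1 mean TPM, and the rule itself had removed lower paralogs. Counts per allele were listed for 66 members, and 63 of those had at least 20 counts in every library and were tested, while Rps23, Rplp2 and Rps27rt had fewer.

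RNA was sequenced from 3 lines of immortalised B cells, called Abl.2, Abl.3 and Abl.4, from mice of a first-generation cross of 129S1/SvImJ and CAST/EiJ. Each line is a single clone. By their labels Abl.3 comes from a male and the remaining lines from females. Every library is a control grown with 1% DMSO, a solvent, from live cells taken on day 2, and each line has 2 library preparation replicates. A clone therefore stands for itself, and the p-values below measure the spread between libraries of a line, which may be wholly technical. The tables name the alleles of each gene maternal and paternal. B lineage markers identified the cells: all 10 on the list, among them Pax5 and Igll1, exceeded 1 TPM in every library. T cell, erythroid and fibroblast markers did not pass 0.69 TPM. Of the myeloid markers Cd14 was at 0, while Lyz2 gave most of a myeloid sum of 159 to 193 TPM in Abl.2 and 75.0 to 97.2 TPM in the other lines, and its part in the results was not tested. Allelic counts per library ran from 18362319 to 26881211, and 2.54% to 3.55% of them fell on members. The depth behind TPM is unknown.

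The cytosolic ribosome is built from ribosomal RNA and one copy of most of its proteins, so its protein genes are commonly expressed in a coordinated way. Their messages are among the most abundant of growing cells. Many begin with a C and a run of pyrimidines, the terminal oligopyrimidine element through which mTOR signalling adjusts their translation. The genes are scattered over nearly all chromosomes, and many carry snoRNA genes in their introns; here 30 members held 59 of them. Mammalian genomes also hold many intronless copies of these genes, most of them silent.

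Ribosomal protein genes were among the most abundant messages of all 3 lines. The median member was at 835 TPM averaged over the 6 libraries, against 25.2 TPM over the 11003 genes at 1 mean TPM or more. There were 83 members above 100 TPM and 40 above 1000 TPM, and 15 members among the 50 most abundant genes but 0 among the top 10. Plain-named small subunit genes had a median of 1129 TPM (33 genes) and large subunit genes of 790 TPM (45 genes). Because TPM is per length, these levels can be set beside each other between genes.

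**Figure D1:**
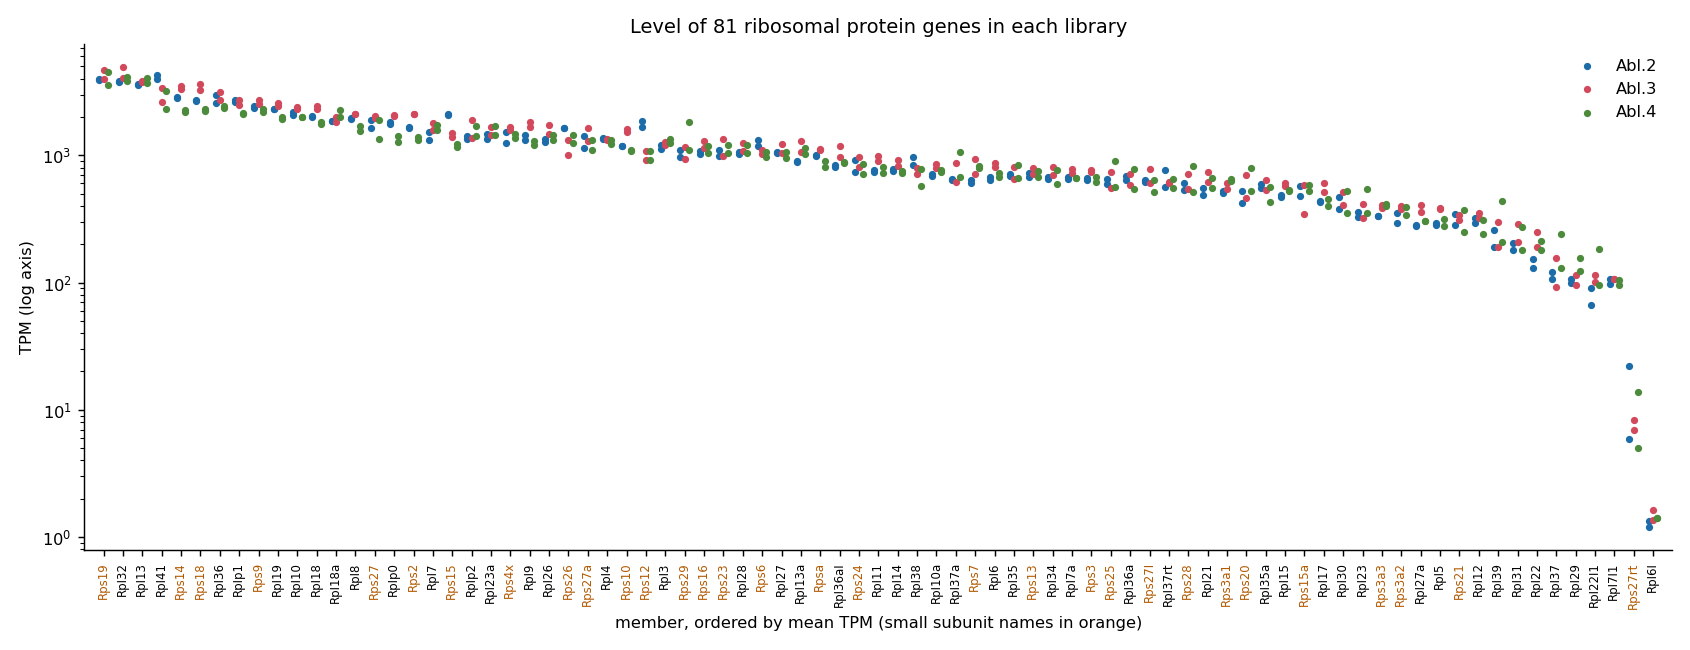
TPM on a log axis of 81 of the 85 members, ordered by mean level, with 1 point per library coloured by line and small subunit names in orange. The members fall from Rps19 near 4106 TPM to Rpl6l at 1.40 TPM, with all drawn but Rps27rt and Rpl6l above 100 TPM.

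Rps19, a small subunit protein whose human gene is the one most often mutated in Diamond-Blackfan anaemia, was the most abundant member. Its TPM was 3876 and 3998 in the Abl.2 libraries, 3951 and 4693 in Abl.3, and 3569 and 4548 in Abl.4. Rpl32, of the large subunit, followed with 3756 and 3834 in Abl.2, 4076 and 4938 in Abl.3, and 4084 and 3837 in Abl.4. Rpl13, also of the large subunit, stood at 3641 and 3546, 3757 and 3808, and 4067 and 3704 TPM in the same order. The lines overlapped for Rps19, and none of these 3 genes differed between lines at an adjusted p below 0.05 by limma. The next most abundant were Rpl41 and Rps14, described below.

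The lowest members were mostly copies and paralogs. Rpl6l, a pseudogene close to Rpl6, stood at 1.21 to 1.64 TPM. Rps27rt, an intronless gene on chromosome 9, was at 22.2 and 5.92 TPM in Abl.2, 6.91 and 8.34 in Abl.3, and 13.7 and 4.97 in Abl.4. In Abl.2 and Abl.4 its replicates differed by more than the line means did, and it had at most 5 allelic counts in a library. Rpl7l1, a relative of Rpl7 with a part in ribosome assembly, was at 107 and 97.2 TPM in Abl.2, 107 and 106 in Abl.3, and 104 and 96.3 in Abl.4. Rpl29, a small basic protein of the large subunit, was at 99.2 and 106 TPM in Abl.2, 95.7 and 114 in Abl.3, and 123 and 155 in Abl.4. Both Abl.4 libraries of Rpl29 were above all others, but its differences of -0.43 for Abl.2 against Abl.4 and -0.40 for Abl.3 against Abl.4 (log2; SE 0.136) did not pass (limma, adjusted p = 0.0523 and 0.0583). The second had the other sign, 0.26, in an edgeR fit to summed allelic counts.

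Each expressed pair of parent and paralog was then compared. Rpl22, a large subunit protein known for a part in lymphocyte development, had a mean of 186 TPM and its paralog Rpl22l1 of 108 TPM. Rpl22l1 was at 66.3 and 90.2 TPM in Abl.2, 100 and 114 in Abl.3, and 95.7 and 184 in Abl.4. It was the member with the lowest difference between Abl.2 and Abl.4, at -0.77 on the log2(TPM + 1) scale (SE 0.300), which did not pass the test (limma, adjusted p = 0.0943). Rpl22 itself was at its lowest in the same line and is described with chromosome 4. For Rpl36a on X the mean was 658 TPM, and for its autosomal paralog Rpl36al it was 925 TPM. Rpl36al was at 831 and 802 TPM in Abl.2, 975 and 1189 in Abl.3, and 888 and 867 in Abl.4. It was higher in Abl.3 than in Abl.2, the difference of Abl.2 from Abl.3 being -0.40 (log2; SE 0.103; limma, adjusted p = 0.0236). That call was lost without either Abl.2 library or without Abl.3 replicate 2 (adjusted p up to 0.133), and on its 40 to 101 allelic counts the difference had the other sign (0.22). Rps27 was at 1890 and 1648 TPM in Abl.2, 2017 and 1968 in Abl.3, and 1353 and 1894 in Abl.4. Its paralog Rps27l, a target of p53, was at 615 and 637, 600 and 776, and 515 and 637 TPM. Rpl3 was at 1124 and 1194, 1196 and 1260, and 1239 and 1334 TPM, and Rpl7 at 1320 and 1525, 1579 and 1782, and 1575 and 1739 TPM. No pair of lines was called for these 4 genes. The paralogs Rpl10l and Rpl39l were listed at 0 and Rpl3l at 0.79 mean TPM, below the minimum.

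Some members have near-identical copies, and reads could be divided between them in a way that the deposited values do not show. Rpl37, of the large subunit, was at 142 mean TPM, while Rpl37rt on chromosome 5 was at 628 TPM. The annotated transcript of Rpl37rt differs from the 294 coding bases of Rpl37 by 1 base, G249A, with positions counted from the first base of the start codon and the Rpl37 base given first. A stretch of coding bases 209 to 288 of both, from GENCODE M21 and with that base in capitals, shows how little separates them:
Rpl37: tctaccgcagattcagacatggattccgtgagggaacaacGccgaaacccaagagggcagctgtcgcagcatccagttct
Rpl37rt: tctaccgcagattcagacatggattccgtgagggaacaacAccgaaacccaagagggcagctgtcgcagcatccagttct
Other close copies, though less so, are Rps3a1 (576 mean TPM), Rps3a2 (360) and Rps3a3 (378), which are 98.9% to 99.5% identical, Rpl6 and Rpl6l (98.7%), and Rps27 and Rps27rt (98.8%). Levels of these single members are therefore uncertain. Rps27l (69.0% identical to Rps27), Rpl36al (77.4% to Rpl36a), Rpl22l1 (67.2% to Rpl22) and Rpl7l1 (57.6% to Rpl7) are distinct in sequence. A further 42 of the 225 names with -ps were at 1 mean TPM or more and 142 were listed at 0 in every library, and all -ps names summed to 0.191% to 0.264% of TPM.

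As a share of all TPM, members made up 9.85% and 9.97% in Abl.2, 10.1% and 11.3% in Abl.3, and 9.02% and 9.91% in Abl.4. The means were 9.91% ± 0.085, 10.7% ± 0.88 and 9.47% ± 0.63 (SD, n = 2). Both Abl.3 libraries were above every other library, while Abl.2 and Abl.4 overlapped. No test was made of this share. In such bulk libraries fewer cells of a type and less RNA per cell cannot be told apart. Replicate 2 was the higher library for 56 of 85 members in Abl.2, for 79 in Abl.3 and for 61 in Abl.4. The median difference of members, replicate 2 minus replicate 1, was 0.04, 0.16 and 0.15 on the log2 scale in Abl.2, Abl.3 and Abl.4. Among all tested genes the median difference between those replicates was between -0.02 and 0.

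The clearest differences between lines followed the chromosome of the gene, first on chromosome 10. The 5 members there made up 0.960% ± 0.012 of TPM in Abl.2 against 0.660% ± 0.094 for Abl.3 and 0.630% ± 0.087 for Abl.4 (SD, n = 2), and the Abl.2 libraries lay above all others. Rps12, a protein of the small subunit beak (chr10:23785183-23787275), stood at 1681 and 1847 TPM in Abl.2, 924 and 1082 in Abl.3, and 910 and 1071 in Abl.4. Both Abl.2 libraries exceeded every library of the other lines. It was higher in Abl.2 than in Abl.3 by 0.82 and than in Abl.4 by 0.83 on the log2 scale (SE 0.118; limma, adjusted p = 0.00256 and 0.00264), the largest rise of any member in both pairs. Rps15, a small subunit protein near the decoding centre that is needed for export of the subunit from the nucleus (chr10:80292453-80294114), stood at 2104 and 2085 TPM in Abl.2, 1386 and 1499 in Abl.3, and 1229 and 1167 in Abl.4. Again the Abl.2 libraries lay clear of the rest, with log2 differences of 0.54 and 0.81 (SE 0.075; limma, adjusted p = 0.00228 and 0.000463). The calls of Rps12 and Rps15 against both lines held with each library left out in turn. On summed allelic counts the differences of Rps12 were 0.54 and 0.46 and did not pass (edgeR, adjusted p = 0.0534 and 0.0981). A small difference of Rps15 from Abl.3 to Abl.4, 0.27 (limma, adjusted p = 0.0327), was lost with any 1 library left out (adjusted p up to 0.161).

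Rps26, a small subunit protein at the exit of the messenger RNA channel (chr10:128624534-128626747), stood at 1648 and 1624 TPM in Abl.2, 1011 and 1328 in Abl.3, and 1240 and 1449 in Abl.4. Its Abl.2 libraries were also the highest. It differed from Abl.3 by 0.50 (log2; SE 0.142; limma, adjusted p = 0.0329) and from Abl.4 by 0.29, which did not pass (adjusted p = 0.169). The first call was lost when either library of Abl.2 or Abl.4, or Abl.3 replicate 1, was left out (adjusted p up to 0.144). Rpl41, a very short and basic protein of the large subunit (chr10:128548114-128549305), was at 4247 and 3958 TPM in Abl.2, 2605 and 3354 in Abl.3, and 2308 and 3226 in Abl.4. The Abl.2 libraries were the highest here too, but the replicates of the other lines spread widely. The differences of 0.47 and 0.59 (SE 0.184) did not pass the test (limma, adjusted p = 0.0850 and 0.0502). The 5th member, Rpl6l, was at 1.21 and 1.34 TPM in Abl.2 and at 1.37 to 1.64 TPM elsewhere, with no call. Other genes of chromosome 10 had median differences of 0.59 and 0.44 between Abl.2 and each of the other lines, and 71.7% and 60.9% of them were called.

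The alleles of these genes were unequal in the same line. The maternal share, maternal counts over counts of both alleles, was 0.341 and 0.335 for Rps12 in the Abl.2 libraries. In the other lines it was 0.502 and 0.510 (Abl.3) and 0.5 in both (Abl.4). For Rps26 it was 0.354 and 0.352 in Abl.2, against 0.496 and 0.526 in Abl.3 and 0.532 and 0.529 in Abl.4. For Rpl41 it was 0.353 and 0.369 in Abl.2, against 0.522 and 0.534 in Abl.3 and 0.509 and 0.462 in Abl.4. No Abl.2 library overlapped another line. All 3 differed from both lines by edgeR's quasi-likelihood test (adjusted p from 7.34e-07 for Rps12 against Abl.3 to 0.00314 for Rpl41 against Abl.4), and held with each library left out. They rest on 3714 to 10356 counts per library for Rps12, 1353 to 3127 for Rps26 and 960 to 2134 for Rpl41. The authors' deposited table gives fractions of 0.34, 0.35 and 0.36 for the same genes in Abl.2. Rps15 and Rpl6l had no row of allelic counts. Other genes of chromosome 10 had a median share of 0.336 in Abl.2, and 0.501 and 0.504 in the other lines.

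When TPM was split by the allelic share, the excess in Abl.2 lay on the paternal allele. For Rps12 the paternal allele was at 1168 ± 85.4 TPM in Abl.2 against 495 ± 49.6 for Abl.3 and 495 ± 56.8 for Abl.4 (SD, n = 2). The maternal allele was at 596 ± 32.6, 508 ± 62.2 and 495 ± 56.7 TPM. For Rps26 the paternal allele was at 1058 ± 8.32, 569 ± 84.6 and 631 ± 72.0 TPM, and the maternal allele at 578 ± 8.47, 600 ± 140 and 713 ± 76.0. For Rpl41 the paternal allele was at 2623 ± 176, 1404 ± 224 and 1434 ± 426 TPM, and the maternal allele at 1480 ± 28.4, 1576 ± 305 and 1333 ± 223. This division takes the share at a gene's SNPs as that of the whole gene, and no test was made of it.

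**Figure D2:**
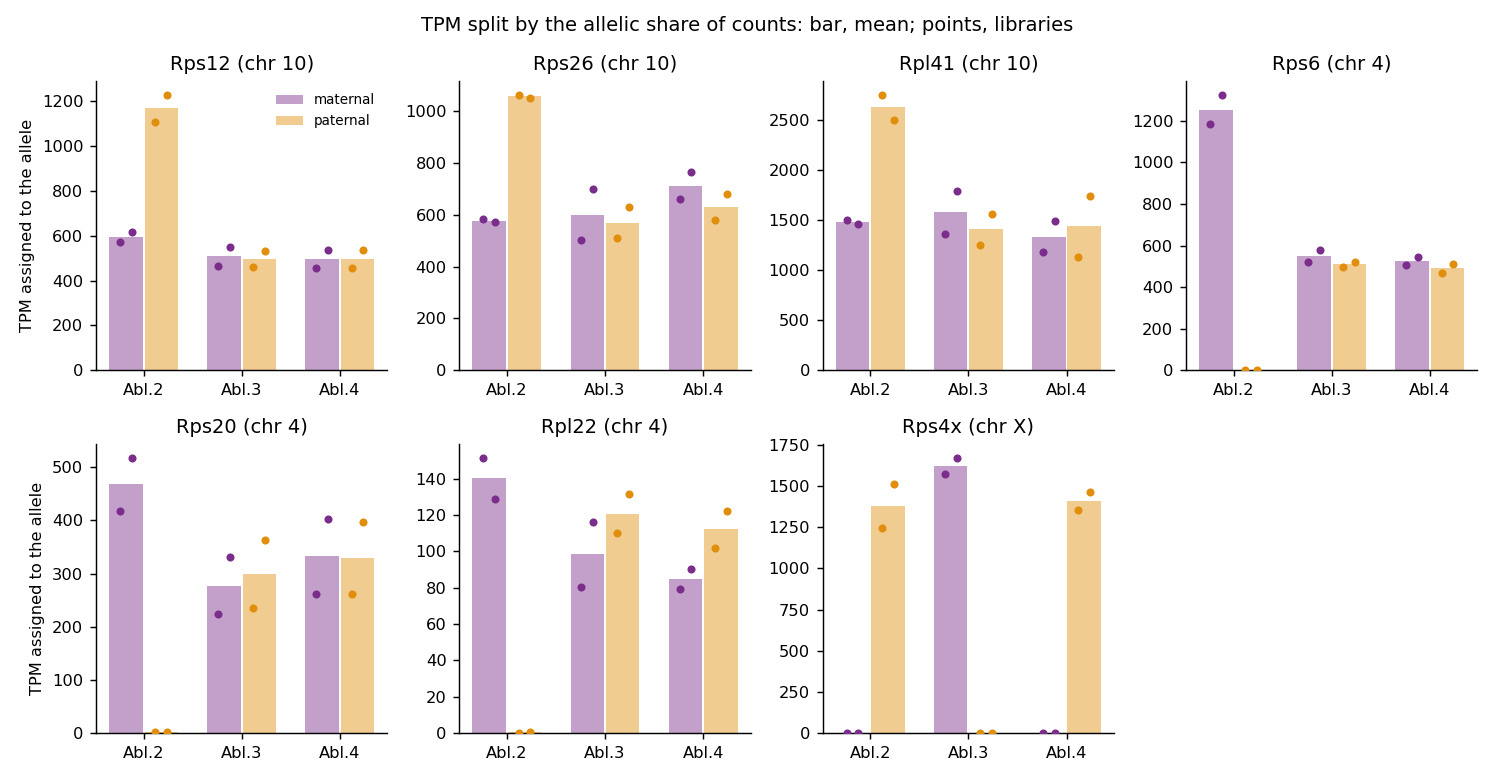
TPM assigned to the maternal and the paternal allele of 7 members in each line; bars are means of 2 libraries and points are the libraries. Rps12, Rps26 and Rpl41 of chromosome 10 show a paternal excess in Abl.2, the 3 members of chromosome 4 show almost no paternal signal in Abl.2, and Rps4x of X is read from 1 allele in each line.

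Intronless copies of Rps15 and Rps26 that lie elsewhere moved the same way in these values. Rps15-ps2, on chromosome 6, stood at 373 and 370 TPM in Abl.2, 152 and 170 in Abl.3, and 141 and 220 in Abl.4. Rps26-ps1, on chromosome 8, stood at 128 and 115, 53.0 and 56.7, and 47.6 and 59.7 TPM. Both were higher in Abl.2, Rps15-ps2 by 1.21 and 1.08 and Rps26-ps1 by 1.13 and 1.17 on the log2 scale (limma, adjusted p at most 0.00729). The copies share 97.7% and 99.4% of the coding bases of their parents, with 10 and 2 base differences, so that reads of parent and copy may not be told apart. Coding bases 159 to 238 of Rps15 and 230 to 309 of Rps26, from GENCODE M21, are set against the copies with differing bases in capitals:
Rps15: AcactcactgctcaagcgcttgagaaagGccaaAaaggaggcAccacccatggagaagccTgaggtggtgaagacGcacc
Rps15-ps2: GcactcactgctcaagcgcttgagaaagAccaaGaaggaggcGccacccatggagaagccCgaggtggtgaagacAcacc
Rps26: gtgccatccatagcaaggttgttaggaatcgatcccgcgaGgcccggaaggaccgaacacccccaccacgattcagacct
Rps26-ps1: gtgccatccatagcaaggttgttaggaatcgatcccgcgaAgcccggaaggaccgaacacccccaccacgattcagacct
The first stretch holds 6 of the differences between Rps15 and its copy. The second holds 1 of those between Rps26 and its copy, G270A, counted from the first base of the start codon with the Rps26 base first. Rps2-ps13, a copy on X at 669 mean TPM and 99.2% identical to Rps2, did not move with its parent in every pair. Its log2 differences were 0.06 for Abl.2 against Abl.3, 0.38 for Abl.2 against Abl.4 and 0.32 for Abl.3 against Abl.4. The adjusted p by limma was 0.715, 0.0478 and 0.0718. Those differences for Rps2 were -0.35, 0.28 and 0.63. How far reads were shared was not tested.

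Promoter sequence was read for the 62 members with a window in RefSeq (GRCm38.p6), 250 bases before to 50 after the annotated start. The letters CCGGAAG, the core of sites bound by ETS factors such as GABP, occurred on either strand in 24 of the 62 (38.7%), against 9.16% of all 27025 windows. AAGATGG, a core of YY1 sites, occurred in 9 (14.5%, against 6.47%), and TATAAA in 6 (9.68%, against 14.2%). A C at or within 5 bases of the start, followed by at least 5 further C or T, was found in 26 (41.9%, against 10.1%). The first 2 motifs can share the letters AAG, and 31 of the 62 windows held at least 1 of them, against 15.0% of all windows. These are descriptions of letters in a window, and RefSeq starts can lie away from the start in use. Shown are 4 windows from chromosomes 4 and 10, of 120 bases before to 30 from the start, with CCGGAAG in capitals. Rps12 (chr10:23787180-23787329) and Rpl41 (chr10:128549139-128549288) are from chromosome 10, Rps6 (chr4:86857338-86857487) and Rpl11 (chr4:136053364-136053513) from chromosome 4, and all 4 lie on the minus strand:
Rps12: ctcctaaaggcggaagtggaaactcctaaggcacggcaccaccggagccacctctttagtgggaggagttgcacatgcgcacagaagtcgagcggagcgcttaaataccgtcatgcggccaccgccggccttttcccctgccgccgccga
Rpl41: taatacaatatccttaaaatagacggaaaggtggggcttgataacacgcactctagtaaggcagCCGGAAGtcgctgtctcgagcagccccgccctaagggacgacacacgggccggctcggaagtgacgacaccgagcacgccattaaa
Rps6: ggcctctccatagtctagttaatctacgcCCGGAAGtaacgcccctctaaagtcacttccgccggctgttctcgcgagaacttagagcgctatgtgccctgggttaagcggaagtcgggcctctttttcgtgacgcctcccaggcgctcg
Rpl11: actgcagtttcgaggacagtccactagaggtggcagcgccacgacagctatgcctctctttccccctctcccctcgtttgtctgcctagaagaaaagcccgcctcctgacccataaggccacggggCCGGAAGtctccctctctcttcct
Rps12 holds none of the 3 spelled-out motifs in its whole window. The same is true of Rps15 of chromosome 10 and Rpl22 of chromosome 4, which are not shown. Rps26 of chromosome 10, also not shown, holds CCGGAAG and AAGATGG. The CCGGAAG of Rpl11 begins at base 7 from the annotated start, and so lies downstream of it.

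On chromosome 4, 4 members with allelic counts were read almost wholly from the maternal allele in Abl.2. Values are given for 3 of them. Rps6, the small subunit protein phosphorylated by S6 kinases (chr4:86854660-86857412), had a maternal share of 0.998 ± 0.000022 in Abl.2 against 0.518 ± 0.011 for Abl.3 and 0.517 ± 0.0028 for Abl.4 (SD, n = 2), on at least 43323 counts. Rps20, of the small subunit (chr4:3831334-3835665), was at 0.998 ± 0.00012, 0.482 ± 0.0083 and 0.502 ± 0.0029. Rpl22 (chr4:152325742-152334071) was at 0.998 ± 0.0017, 0.446 ± 0.033 and 0.431 ± 0.0089, on 940 to 1738 counts. Every Abl.2 library was above every other library, and the 3 genes differed from both lines (edgeR, adjusted p at most 9.46e-10). Rpl11, which binds 5S RNA with Rpl5 and can bind the p53 regulator Mdm2 (chr4:136028265-136053428), had no row of allelic counts. Other genes of chromosome 4 had a median share of 0.998 in Abl.2, and 98.0% of them were called in both pairs.

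The levels of the genes on chromosome 4 did not move one way. Rps6 stood at 1185 and 1328 TPM in Abl.2, 1017 and 1099 in Abl.3, and 976 and 1055 in Abl.4. Both Abl.2 libraries were above all others, with a difference of 0.31 from Abl.4 (log2; SE 0.090; limma, adjusted p = 0.0424) that was lost with any 1 library left out (adjusted p up to 0.234). The difference of 0.25 from Abl.3 did not pass (limma, adjusted p = 0.0718). On summed allelic counts both had the other sign, -0.24 against Abl.4 and -0.37 against Abl.3 (edgeR, adjusted p = 0.0697 and 0.0106). Its allelic counts hardly varied between libraries (43323 to 46278), so these sums are a limited check of its level. Rpl22 stood at 152 and 129 TPM in Abl.2, 190 and 248 in Abl.3, and 181 and 213 in Abl.4. Here both Abl.2 libraries were below all others; the difference from Abl.3 was -0.63 (log2; SE 0.154; limma, adjusted p = 0.0191) and that from Abl.4 was -0.48, which did not pass (adjusted p = 0.0529). The first call was lost without either Abl.2 library or Abl.3 replicate 2 (adjusted p up to 0.122). Rpl11 stood at 768 and 744 TPM in Abl.2, 908 and 995 in Abl.3, and 731 and 809 in Abl.4. It was highest in Abl.3, by 0.33 over Abl.2 and 0.31 over Abl.4 (log2; SE 0.085; limma, adjusted p = 0.0227 and 0.0307), and Abl.2 overlapped Abl.4. The first of these was lost without either Abl.2 library or Abl.3 replicate 2 (adjusted p up to 0.132). The second was lost without any 1 of the libraries other than Abl.4 replicate 2 (adjusted p up to 0.156).

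Rps20 stood at 419 and 520 TPM in Abl.2, 460 and 694 in Abl.3, and 525 and 801 in Abl.4. The lines overlapped, and it was not called in any pair. Divided by allele, the maternal copy of Rps6 was at 1255 ± 101 TPM in Abl.2, against 549 ± 42.2 for Abl.3 and 525 ± 26.3 for Abl.4 (SD, n = 2). For Rps20 these values were 469 ± 70.8, 277 ± 75.1 and 333 ± 99.7 TPM. For Rpl22 they were 140 ± 16.2, 98.4 ± 25.2 and 84.9 ± 8.04 TPM. The paternal copies in Abl.2 were at 0.307 to 1.97 TPM. Maternal levels in Abl.2 thus exceeded those of every other library for these 3 genes, with no test made of the divided values.

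On X, 4 members were measured: Rps4x, Rpl10, Rpl36a and Rpl39. Rps4x, the X copy of a small subunit protein (chrX:102184941-102189394), was the only one of them with allelic counts. Its maternal share was 0.000956 ± 0.000067 in Abl.2 against 0.999 ± 0.00059 for Abl.3 and 0.000722 ± 0.00078 for Abl.4 (SD, n = 2), on 10994 to 14949 counts. Abl.3 differed from both female lines (edgeR, adjusted p = 6.47e-13 and 1.89e-12). A female clone keeps a single X active and a male carries only the maternal X. Its TPM was 1246 and 1512 in Abl.2, 1575 and 1675 in Abl.3, and 1359 and 1464 in Abl.4, with no pair called.

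Rpl10, a large subunit protein needed for the joining of the subunits (chrX:74270812-74273135), stood at 2060 and 2194 TPM in Abl.2, 2304 and 2389 in Abl.3, and 2006 and 2006 in Abl.4. It was higher in Abl.3 than in Abl.4 by 0.23 (log2; SE 0.073; limma, adjusted p = 0.0496), and the call was lost with any 1 library left out (adjusted p up to 0.190). Rpl36a, of the large subunit, stood at 636 and 687 TPM in Abl.2, 583 and 709 in Abl.3, and 545 and 786 in Abl.4. Rpl39, which lines the exit tunnel of the nascent peptide, stood at 192 and 260 TPM in Abl.2, 189 and 298 in Abl.3, and 208 and 437 in Abl.4. The lines overlapped for both, and neither was called.

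Counts of members called for abundance are given beside the share called over all tested genes, and the difference between them was not tested. Between Abl.2 and Abl.3, 20 members were called by limma, 3 higher in Abl.2 and 17 lower, against a background of 39.8% over all tested genes (25.9% higher and 14% lower). Between Abl.2 and Abl.4, 11 were called, 9 higher and 2 lower, against a background of 33.5% (15% and 18.4%). Between Abl.3 and Abl.4, 18 were called, all higher in Abl.3, against a background of 38.1% (11.3% higher and 26.8% lower). At an unadjusted p below 0.05, 25 members were higher and 1 lower in that pair, against 15.1% and 33.7% of all tested genes (limma). The share of calls that were higher in Abl.2 depended on the scaling. Against Abl.3, quantile normalisation gave 5 higher and 11 lower (18.8% and 17.8% of all genes), centring on the median gene 2 and 40 (16.1% and 24%), and edgeR on summed allelic counts 0 and 33 of 63 (22.1% and 20%). Against Abl.4 these gave 10 and 4 (18.3% and 16.4%), 13 and 0 (17.8% and 16%), and 1 and 11 (18.3% and 18.9%). Between Abl.3 and Abl.4 they gave 10, 45 and 11 higher (17.3%, 24.8% and 17.4%) and 0 lower (16%, 13.9% and 19.9%). Between Abl.2 and Abl.4 the share of members called was below that of all genes under all of these. In the pairs with Abl.3 it was above that of all genes when centred (49.4% against 40.1%, and 52.9% against 38.7%) and, for Abl.2 against Abl.3, on summed counts (52.4% against 42.1%). As described below, allelic counts of the most covered members hardly varied between libraries (46236 to 47237 for Rplp0). Library totals ran from 18362319 to 26881211 and were highest in Abl.2. Calls on summed counts are therefore a limited check of level, and how far this set them was not tested. With the replicate number as a block, members were 5 higher and 27 lower in the first pair and 12 and 11 in the second. In the last they were 30 and 2. Of all genes, 30.3% were then higher and 17% lower, 19.2% and 22.7%, and 14.7% and 32.4% in the same order. The second pair thus lost its excess of higher calls among members. Each pair of these comparisons shares the libraries of 1 line.

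The 3 members higher in Abl.2 than in Abl.3 were Rps12, Rps15 and Rps26 of chromosome 10. The 17 lower ones ran from -0.63 for Rpl22 to -0.23 for Rpl18 on the log2 scale, with Rpl5, Rpl6, Rpl9, Rpl10a, Rpl11, Rpl13a, Rpl15, Rpl17, Rpl27a, Rpl36al, Rps2, Rps3a3, Rps10, Rps14 and Rps18 between them. Against Abl.4, the higher members were Rps12, Rps15, Rplp0, Rps14, Rplp1, Rps6, Rps2, Rpl8 and Rpl19, from 0.83 down to 0.25. Rps3a1 and Rps3a3, whose reads may be shared, had differences of -0.31 and -0.30. The 18 members higher in Abl.3 than in Abl.4 ran from 0.23 for Rpl10 to 0.63 for Rps2, among them Rpl5, Rpl6, Rpl8, Rpl9, Rpl17, Rpl18, Rpl19, Rps10, Rps18 and Rpsa.

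The counts also depended on single libraries, as did those of all genes. Between Abl.2 and Abl.3 they were 3 without Abl.2 replicate 1, 2 without Abl.2 replicate 2 and 6 without Abl.3 replicate 2, where 23.1%, 22.4% and 23.8% of all genes were called. The excess of lower calls was lost in these, with 1, 0 and 2 lower. Between Abl.2 and Abl.4 the median difference of members was -0.09 without Abl.4 replicate 1 and 0.06 without Abl.4 replicate 2. For all genes it was -0.03 and -0.02. The excess of higher calls was lost without Abl.4 replicate 1, and nearly so without either Abl.3 library. The counts fell without either Abl.2 library or Abl.4 replicate 2, as did the share of all genes called. Between Abl.3 and Abl.4 they were 11 without either Abl.2 library or Abl.3 replicate 1 (31%, 30.9% and 21.3%) and 7 without Abl.3 replicate 2 (21.5%). Lower calls of that pair were 1 without Abl.3 replicate 2 and 3 without Abl.4 replicate 1. The median difference of members was -0.14, -0.03 and 0.14 on the log2 scale in the 3 pairs, against 0.10, -0.03 and -0.15 for all tested genes. By subunit, 8, 7 and 6 of 35 small and 12, 4 and 12 of 50 large subunit members were called.

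**Figure D3:**
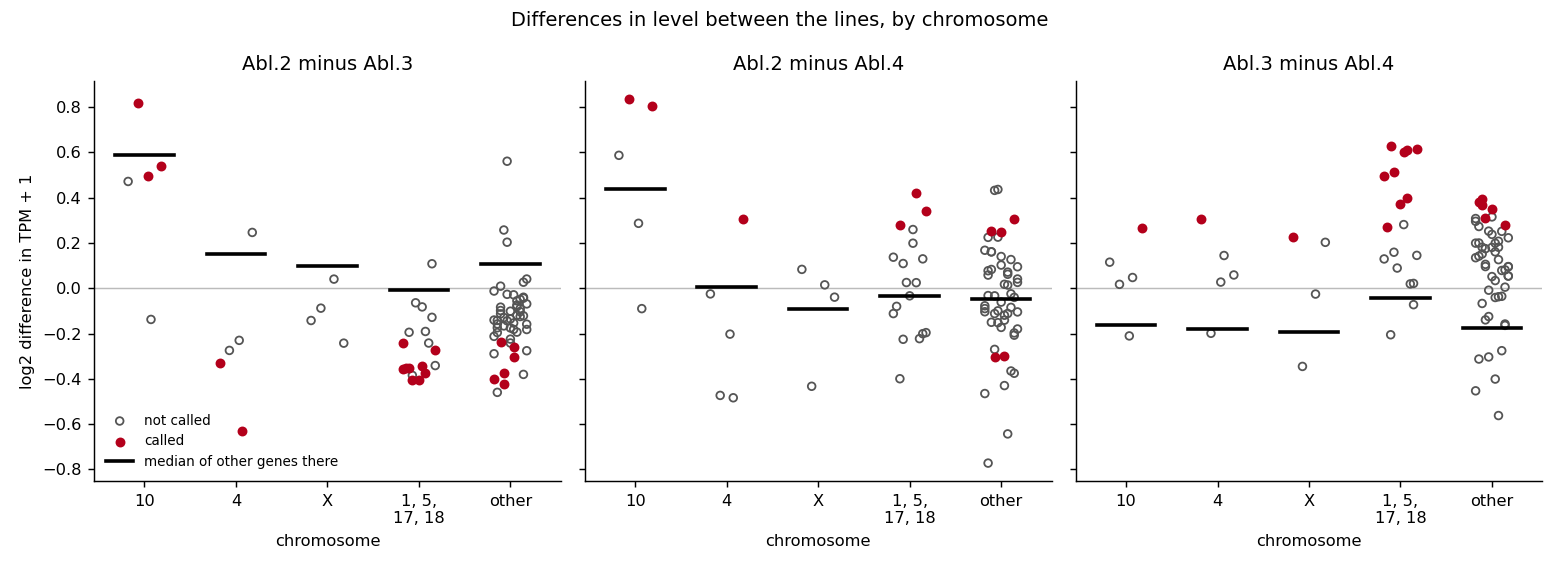
Log2 difference in TPM + 1 of each of the 85 members for the 3 pairs of lines, by chromosome; filled points are called by limma at an adjusted p below 0.05, open points are not, and black bars are medians of the other genes of those chromosomes. Of the 5 members of chromosome 10, 4 lie above 0 in both pairs with Abl.2 and Rpl6l below it, and of the 18 members of chromosomes 1, 5, 17 and 18, 17 lie below 0 for Abl.2 minus Abl.3 and 16 above 0 for Abl.3 minus Abl.4.

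Many of the calls that involve Abl.3 fell on chromosomes 1, 5, 17 and 18, a group that was chosen because shares of all their genes in Abl.3 were already known to lie off 0.5. Of the 18 members there, 9 were lower in Abl.2 than in Abl.3 and 9 were higher in Abl.3 than in Abl.4, beside 18.1% and 15.5% of the other genes of these chromosomes. Their median differences were -0.31 and 0.28, while other genes of these chromosomes had medians of -0.01 and -0.04. Chromosome 1 gave 0 of these calls from its 3 members, beside 17.7% and 14.2% of its other genes in the same directions. Of the 53 members on the remaining autosomes, 6 and 6 were called in the same directions, beside 13.3% and 9.97% of the other genes there, and the medians were -0.14 and 0.13.

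Rps2, a small subunit protein near the entry of the messenger RNA channel (chr17:24718116-24721929), stood at 1677 and 1632 TPM in Abl.2, 2123 and 2096 in Abl.3, and 1404 and 1324 in Abl.4. No library of a line overlapped another line. It was higher in Abl.3 than in Abl.4 by 0.63 (log2; SE 0.071; limma, adjusted p = 0.00108), the largest difference of that pair, which held with each library left out. Between Abl.2 and the other lines it differed by -0.35 and 0.28 (adjusted p = 0.00937 and 0.0249). The first was lost without any 1 library of Abl.2 or Abl.3 (up to 0.0894), and the second without any 1 library other than Abl.4 replicate 1 (up to 0.169). Rps14, of the small subunit platform (chr18:60774510-60778546), stood at 2812 and 2851 TPM in Abl.2, 3343 and 3491 in Abl.3, and 2199 and 2267 in Abl.4. The lines again fell into 3 separate levels, with Abl.3 above Abl.4 by 0.61 (log2; SE 0.071; limma, adjusted p = 0.00122). Rplp0, the base of the stalk that recruits elongation factors (chr5:115559467-115563727), stood at 1756 and 1840 TPM in Abl.2, 2046 and 2057 in Abl.3, and 1418 and 1272 in Abl.4. It followed the same order, with Abl.3 above Abl.4 by 0.61 (log2; SE 0.081; limma, adjusted p = 0.00212). These differences of Rps14 and Rplp0 held with each library left out, but on summed allelic counts they were 0.056 and 0.093 and did not pass (edgeR, adjusted p = 0.919 and 0.506). On summed allelic counts, the differences between Abl.2 and Abl.4 of Rps2 (-0.066) and Rplp0 (-0.28) and that between Abl.2 and Abl.3 of Rps14 (0.33) had the other sign. These sums are a limited check of level. Rplp0 had 46236 to 47237 allelic counts in every library, and Rps14 only 26 to 59. The other stalk proteins were Rplp1, higher in Abl.2 and Abl.3 than in Abl.4 by 0.31 and 0.28 (limma, adjusted p = 0.0246 and 0.0303), and Rplp2, with no call.

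Away from these chromosomes, Rpl27a, a large subunit protein on chromosome 7, stood at 279 and 285 TPM in Abl.2, 355 and 404 in Abl.3, and 304 and 306 in Abl.4. Abl.3 was above both other lines without overlap, with differences of -0.42 for Abl.2 against Abl.3 and 0.31 for Abl.3 against Abl.4 (log2; SE 0.082; limma, adjusted p = 0.00815 and 0.0260). The first was lost without either Abl.2 library (adjusted p up to 0.0598) and the second without any 1 library other than Abl.3 replicate 1 (up to 0.128). Rps29, a small zinc-binding protein, stood at 1105 and 966 TPM in Abl.2, 942 and 1152 in Abl.3, and 1106 and 1839 in Abl.4. Rpl37 stood at 108 and 120 TPM in Abl.2, 92.9 and 156 in Abl.3, and 131 and 242 in Abl.4. For both, Abl.4 replicate 2 was the highest library while replicate 1 lay within the range of the other lines, and no pair was called.

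Between Abl.2 and Abl.3 the allelic share differed for 22 of 63 members by edgeR (11 higher and 11 lower; background 28.4%, of which 15.4% higher and 13% lower). Between Abl.2 and Abl.4 it differed for 11 (6 and 5; background 22.3%, 12.7% and 9.61%). Between Abl.3 and Abl.4 it differed for 13 (6 and 7; background 16.5%, 8.53% and 7.93%). This last count fell without either Abl.3 library, and no share over all genes is given for those fits. Of the 22, 11 and 13 calls, chromosomes 4, 10 and X gave 8, 7 and 1. Nearly all of the rest in the pairs with Abl.3 lay on chromosomes 1, 5, 17 and 18, where 12 of 17 tested members differed between Abl.2 and Abl.3 and 11 of 17 between Abl.3 and Abl.4. Of the other genes there 28.2% and 25.9% were called, and these chromosomes were chosen from the shares of the same libraries. Against Abl.4, Abl.2 had 1 call among these 17, beside 12.7% of the other genes.

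The direction went with the chromosome. On chromosome 17 all 7 members were more maternal in Abl.3, with 6 calls against Abl.2 and 5 against Abl.4, beside 22.7% and 21.8% of other genes of the chromosome called in that direction. Of these, the calls of Rps10 and Rps18 against both lines, of Rpl7l1 against Abl.2 and of Rpl10a against Abl.4 were each lost without some 1 library (edgeR, adjusted p up to 0.255). Rps2 had a maternal share of 0.565 ± 0.010 in Abl.2 against 0.613 ± 0.00072 for Abl.3 and 0.532 ± 0.0030 for Abl.4 (SD, n = 2), on at least 36442 counts. Rpl36 had 0.569 ± 0.014, 0.637 ± 0.00062 and 0.562 ± 0.013. On chromosomes 1, 5 and 18 all 10 tested members were less maternal in Abl.3 than in either line. Rplp0 had 0.498 ± 0.00071 in Abl.2 against 0.461 ± 0.0079 for Abl.3 and 0.511 ± 0.0056 for Abl.4. Rpl7 on chromosome 1 had 0.507 ± 0.0021, 0.453 ± 0.0062 and 0.516 ± 0.011. Rps14 had only 26 to 59 allelic counts per library, and its share differences were not called. Other genes of these chromosomes moved the same way: their median share difference between Abl.3 and Abl.4 was 0.045 on chromosome 17 and -0.053, -0.052 and -0.045 on chromosomes 1, 5 and 18.

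**Figure D4:**
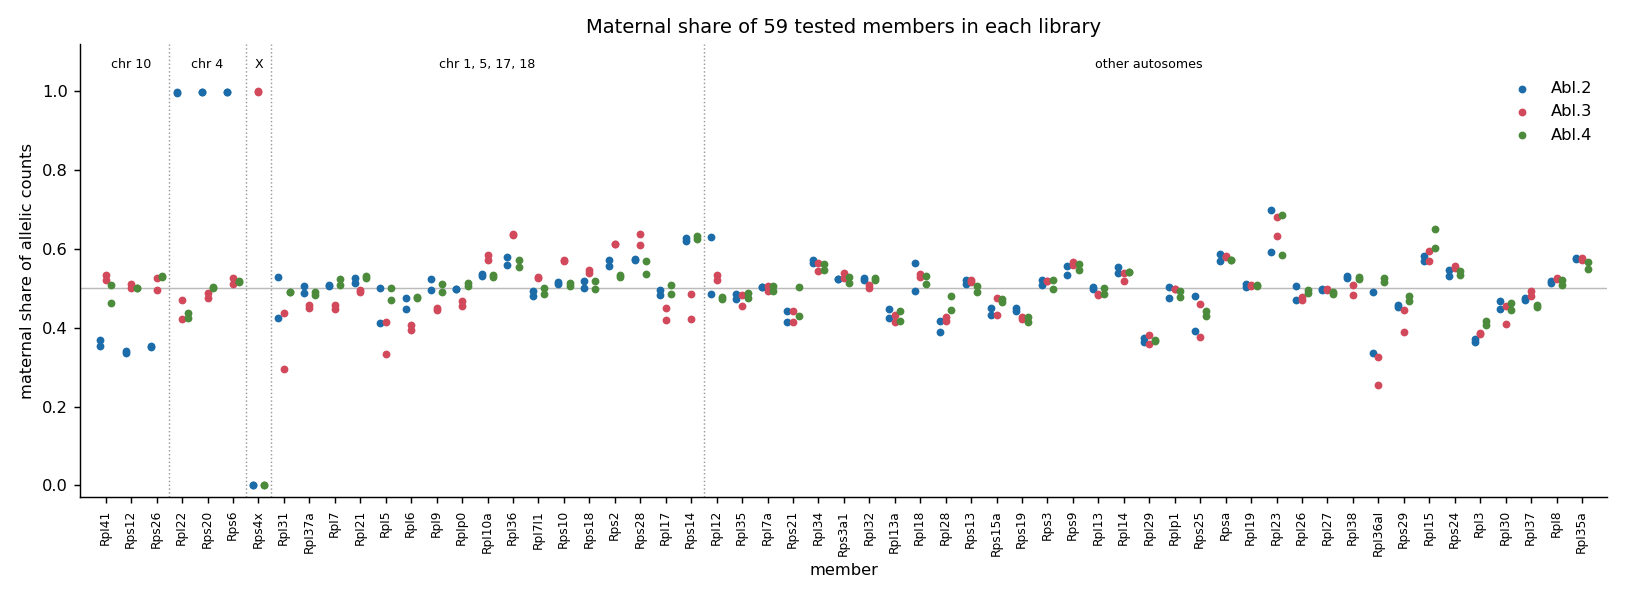
Maternal share of allelic counts of 59 of the 63 tested members, 1 point per library coloured by line, grouped by chromosome. Abl.2 stands apart on chromosomes 4 and 10, Rps4x is near 0 or 1, Abl.3 is shifted on chromosomes 1, 5, 17 and 18, and most other members lie between 0.4 and 0.6.

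Of 55 tested members off chromosomes 4, 10 and X, 42 (76.4%) had mean shares from 0.4 to 0.6 in all 3 lines, against 60.7% of 7440 other genes. Members were also counted more deeply, with a median lowest library count of 3844 against 735. With at least 1000 counts in every library the shares were 83.7% of 43 members and 77.2% of 3111 genes. The median range of the mean share over the lines was 0.032 for members and 0.057 for the other genes. No member there had both a called difference and a share difference of at least 0.1. The largest called differences were -0.068 for Rpl36 between Abl.2 and Abl.3, -0.060 for Rpl28 between Abl.2 and Abl.4 (lost without Abl.2 replicate 1 or Abl.4 replicate 2, adjusted p up to 0.201 by edgeR), and 0.081 for Rps2 between Abl.3 and Abl.4. Differences of 0.1 or more at any p were found for 4, 2 and 5 members in the 3 pairs, among them Rpl31, Rpl36al, Rps14 and Rpl5, and 0, 1 and 2 of these had an unadjusted p below 0.05 by edgeR.

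Unequal alleles were called by edgeR for 34 of 63 members in Abl.2, 18 with the maternal and 16 with the paternal allele higher (background 49.1%, 24.7% and 24.4%). In Abl.3 there were 42 such members, 20 and 22 (background 45.1%, 22.5% and 22.6%), and in Abl.4 there were 26, 15 and 11 (background 39.9%, 19.2% and 20.7%). Off chromosomes 4, 10 and X, 13 members favoured the maternal and 8 the paternal allele in all 3 lines, 13 were called in none, 21 in some, and 0 in opposite directions. Of the 7440 other genes these shares were 10.98%, 10.66%, 39.2%, 37.4% and 3.94%, and no test was made of the difference. Rpl29 was at 0.369 ± 0.0062, 0.371 ± 0.016 and 0.368 ± 0.0011 in Abl.2, Abl.3 and Abl.4 (SD, n = 2), on 8776 to 12575 counts. Rpl3, a protein at the catalytic centre of the large subunit, was at 0.367 ± 0.0053, 0.386 ± 0.0011 and 0.412 ± 0.0061, on at least 26657 counts. Its share in Abl.2 was lower than in Abl.4, with a difference of -0.045 (edgeR, adjusted p = 0.000447) that held with each library left out. Rps19 was at 0.447 ± 0.0044, 0.424 ± 0.0033 and 0.421 ± 0.010, on at least 30881 counts. A paternal excess was likewise called in all lines for Rpl13a, Rpl28 and Rpl30, among others. Among the maternal genes Rpsa, which is related to a laminin receptor, was at 0.577 ± 0.013, 0.581 ± 0.0024 and 0.571 ± 0.00067, on at least 37226 counts. The others were Rpl10a, Rpl14, Rpl15, Rpl23, Rpl34, Rpl35a, Rpl36, Rps2, Rps24, Rps28, Rps3a1 and Rps9. Their mean shares ran from 0.521 for Rps3a1 in Abl.4 to 0.658 for Rpl23 in Abl.3. The source of these offsets was not tested.

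Allelic counts of the most covered members hardly followed their abundance. Rplp0 had 46236 to 47237 counts over the 6 libraries, a ratio of 1.02, while its TPM differed by a ratio of 1.62. Over the 14 members with a mean of at least 15000 counts, the median ratio of Abl.2 replicate 2 to replicate 1 was 1.04. It was 1.33 over the other 49, and 1.18 for all allelic counts. The source of this was not tested. All values and numbers of calls on summed allelic counts given above come from the same counts.

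Other genes of the pathway were read from lists of their names. Of the ribosome parts that the naming rule misses, Fau, which carries a small subunit protein fused to a ubiquitin-like one, had differences of -0.38 and -0.35 for Abl.2 against Abl.3 and Abl.4 (log2; limma, adjusted p = 0.0180 and 0.0262). Rack1, a scaffold on the small subunit, was higher in Abl.2 and in Abl.3 than in Abl.4 by 0.26 and 0.41 (limma, adjusted p = 0.0338 and 0.00624). Of 14 elongation and other genes with terminal oligopyrimidine messages, 1 was higher and 3 lower in Abl.2 than in Abl.3, 3 and 2 than in Abl.4, and 3 higher and 1 lower in Abl.3 than in Abl.4. The rise in Abl.2 against Abl.3 was that of Eef2, the translocation factor, which also lies on chromosome 10 (0.52 against Abl.3 and 0.56 against Abl.4, log2). Of 29 genes of ribosome assembly, 18 were higher in Abl.2 than in Abl.4 and 0 lower (median 0.43, against -0.03 for all tested genes), 9 higher and 1 lower in Abl.2 than in Abl.3, and 9 higher and 1 lower in Abl.3 than in Abl.4. Over all tested genes the shares were 15% higher and 18.4% lower, 25.9% and 14%, and 11.3% and 26.8% in these 3 pairs, and no list was tested against them. Among the assembly genes Bop1, Pes1 and Rrp12 were higher in Abl.2 than in Abl.4 by 0.70, 0.50 and 0.91 (log2), and the snoRNA-guided methyltransferase Fbl by 0.42. Of 5 dedicated chaperones of ribosomal proteins, 4 were higher and 1 lower in Abl.2 than in Abl.4, 1 and 1 than in Abl.3, and 3 were higher and 0 lower in Abl.3 than in Abl.4. The mitochondrial ribosome, a separate machine, had 2 of 79 tested genes higher and 20 lower in Abl.2 than in Abl.3. Against Abl.4 these were 13 and 5, and 30 were higher and 1 lower in Abl.3 than in Abl.4. The backgrounds were 39.8%, 33.5% and 38.1% for both directions together. This list went by name and kept Mrpl23-ps1 and Mrpl48-ps, although -ps names were left out of the members. Mrpl23-ps1 was 1 of the 13 (0.90, log2, adjusted p = 0.0442 by limma).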

How the data were processed

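RNA-seq libraries (6, from 3 lines) were made from 10 ng RNA with the SMART-seq v4 kit, per the labels' protocols. STAR 2.5.4a, SAMtools, GATK and DESeq2 and the builds GRCm38, mm10 and GRCh37 (a human build, not used here) are named by the submitters' processing notes; which parent is of which strain was not given in the sources used here. The authors deposited TPM per gene, counts of maternal and paternal reads per gene, and a table of allelic fractions with replicates averaged. TPM and allelic counts were used for tests, and the deposited fractions only beside them.

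Abundance was tested with limma 3.58.1 (trend) on log2(TPM + 1) for 11003 genes of at least 1 mean TPM. Such fold changes understate those of low genes. Allelic shares were tested with edgeR 4.0.16 (quasi-likelihood, R 4.3.3) on the maternal and paternal counts of 8702 genes with at least 20 counts in every library. All lines shared 1 fit, and p-values were adjusted by Benjamini-Hochberg over all tested genes, with 0.05 as threshold. Simulated data served as a check of the scripts. Of 200 genes given a log2 change in abundance of 0.5, the abundance test recovered 0% in either pair with Abl.2. With a change of 1 it recovered 67% against Abl.3 and 67.5% against Abl.4. For a log2 change of 2 between alleles, the allelic test recovered 92% and 92.5% in the same order. A missing call for a smaller difference in abundance therefore does not show equal levels. Alternatives were other pseudocounts, filters, scalings, count minimums, DESeq2 1.42.0, a replicate block, and each library left out. Members and lists were chosen with earlier results of these data known. Values per library were given for members on chromosomes 4, 10 and X, the 5 highest and 5 lowest, the 3 largest changes each way per pair, members with a called share difference of at least 0.1 or a share near 0 or 1, and paralog pairs; Rps3a1 to Rps3a3, the stalk proteins, Rpl36, Rpsa, Fau, Rack1 and the -ps copies were added after their values were seen. Some genes are not reported here, although counts over all members include them. Gene models were from GENCODE M21 (98.7% of 35412 gene starts matched) and promoters from RefSeq. Reads carried no molecular identifiers, so that counts can exceed the molecules behind them.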

Additional observations from a re-analysis of the deposited data

Results flagged for a closer look

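The tests named here compare the maternal share of a member between 2 lines, and each value is the difference in mean share, the first line minus the second (edgeR, adjusted p below 0.05). Between Abl.2 and Abl.3 the share was higher in Abl.2 for Rpl17 (0.0535), Rpl22 (0.552), Rpl37a (0.0437), Rpl6 (0.0614), Rpl7 (0.0549), Rpl9 (0.0619), Rplp0 (0.0366), Rps19 (0.0230), Rps20 (0.516) and Rps6 (0.480). It was lower in Abl.2 for Rpl10a (-0.0433), Rpl36 (-0.0677), Rpl41 (-0.167), Rpl7l1 (-0.0418), Rps10 (-0.0566), Rps12 (-0.168), Rps18 (-0.0329), Rps2 (-0.0483), Rps26 (-0.158) and Rps4x (-0.998). Between Abl.2 and Abl.4 the share was higher in Abl.2 for Rpl22 (0.566), Rps19 (0.0254), Rps2 (0.0329), Rps20 (0.496) and Rps6 (0.481). It was lower in Abl.2 for Rpl28 (-0.0595), Rpl3 (-0.0449), Rpl41 (-0.125), Rps12 (-0.162) and Rps26 (-0.177). Between Abl.3 and Abl.4 the share was higher in Abl.3 for Rpl10a (0.0455), Rpl36 (0.0745), Rps10 (0.0602), Rps18 (0.0346), Rps2 (0.0812) and Rps4x (0.998). It was lower in Abl.3 for Rpl17 (-0.0617), Rpl21 (-0.0346), Rpl3 (-0.0259), Rpl6 (-0.0759), Rpl7 (-0.0631), Rpl9 (-0.0539) and Rplp0 (-0.0498). Leaving out 1 library ended some of these calls. For Abl.2 against Abl.3 these were Rpl6, Rpl7l1, Rpl9, Rpl17, Rpl37a, Rps10, Rps18 and Rps19 (adjusted p up to 0.255, for Rps18), of which Rpl9 was lost only without Abl.2 replicate 1 and Rps10 only without Abl.2 replicate 2. For Abl.2 against Abl.4 the call of Rps19 was lost without any 1 library other than Abl.4 replicate 2 (up to 0.157), and that of Rpl28 without Abl.2 replicate 1 or Abl.4 replicate 2 (up to 0.201). For Abl.3 against Abl.4 those of Rpl3, Rpl6, Rpl9, Rpl10a, Rpl17, Rpl21, Rps10 and Rps18 were lost (up to 0.216, for Rps18), Rpl6 and Rpl10a only without Abl.3 replicate 1. The other share differences listed here passed with each library left out. The 3 pairs share libraries, so these are not independent. No group had the 4 libraries that a test for a library far from the others needs.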

How the results depend on the processing

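Counts of called members depended on the processing, given first for abundance. They are out of 85 members, or out of 63 on summed allelic counts. Between Abl.2 and Abl.3 the 20 calls became 9 with no filter on low values, 33 with edgeR on summed allelic counts, 3 with a log2 change of at least 0.5 required, 42 with each library centred on the median gene, and 2 to 18 with 1 library left out. Between Abl.2 and Abl.4 the 11 calls became 4 with no filter, 2 with the change of at least 0.5, and 2 to 12 with 1 library left out. Between Abl.3 and Abl.4 the 18 calls became 10 with quantile normalisation, 11 on summed allelic counts, 5 with the change of at least 0.5, 45 when centred, and 7 to 15 with 1 library left out. On summed allelic counts 42.1% of all genes were called in the first pair and 37.3% in the last. When centred these shares were 40.1% and 38.7%, and quantile normalisation gave 33.3% in the last. For the filter and the change of at least 0.5 no share over all genes is given. The replicate block gave 32, 23 and 32 calls (5 higher and 27 lower, 12 and 11, and 30 and 2), against 20, 11 and 18. It called 47.4%, 41.9% and 47.1% of all genes, against 39.8%, 33.5% and 38.1%. No label says that a number marks a shared batch, and each pair of lines holds 2 numbers. Deviations of same-numbered libraries correlated at 0.104, 0.187 and 0.161 over all genes and 0.083, 0.508 and 0.504 over members.

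On summed allelic counts the sign turned for 7 named abundance differences that were called in the reported fit or in this one. Between Abl.2 and Abl.3 these were Rpl36al (0.22), Rps14 (0.33) and Rps6 (-0.37). Between Abl.2 and Abl.4 they were Rps2 (-0.066), Rps6 (-0.24) and Rplp0 (-0.28), and between Abl.3 and Abl.4 Rpl29 (0.26). Sign changes with a call in neither fit are not listed. Counts of the most covered members, Rps6, Rplp0 and Rps2 among them, hardly followed their abundance, which limits this check. The cause was not tested.

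With a share difference of at least 0.1 required, allelic calls fell to 8, 7 and 1, and with a share at least 0.1 from 0.5, imbalance calls fell to 13, 11 and 5 in Abl.2, Abl.3 and Abl.4. With 1 library left out, allelic differences gave 15 to 23, 9 to 12 and 5 to 13 calls, and imbalance 26 to 35, 30 to 43 and 18 to 27. No sign of a called share turned under the alternatives, where signs were read for the named members and not for every member. DESeq2 gave 18, 11 and 11 differences. No share over all genes is given for these allelic settings, so their counts cannot be set beside a background. The members' share of TPM became 8.62%, 9.67% and 8.49% in the 3 lines without members on chromosomes 4 and 10, and an alternative with further ribosome parts added is not reported. Leaving out 1 library puts a line at a single sample that is assumed to vary like the other lines. Low SNP counts limit Rps14, Rpl36al, Rpl23 and Rpl31, and 22 members had no tested share.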

Other observations

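The mitochondrial ribosome gave larger single differences than the cytosolic one. Mrpl48, of its large subunit, was lower in Abl.2 than in both other lines, with log2 differences of -1.56 and -1.30. Mrps15, of the small subunit and on chromosome 4, was lowest in Abl.3, with differences of 1.34 for Abl.2 against Abl.3 and -1.02 for Abl.3 against Abl.4. Mrps18b was lowest in Abl.4, by 0.83 against Abl.2 and 0.91 against Abl.3. All of these differences in level passed limma's test, and the genes of this group summed to 1.05%, 1.21% and 0.993% of TPM in Abl.2, Abl.3 and Abl.4.

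Short members differed more between replicates than long ones. The median absolute log2 difference between the 2 libraries of a line was 0.115, 0.227 and 0.292 in Abl.2, Abl.3 and Abl.4 for 28 members under 600 bases, and 0.057, 0.142 and 0.143 for 53 longer ones. The source of this was not tested.

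Among the chaperones of ribosomal proteins, Pdcd2, which binds newly made Rps2, was at 89.9 and 84.5 TPM in Abl.2, 158 and 164 in Abl.3, and 130 and 131 in Abl.4. It lies on chromosome 17, as Rps2 does, and all 3 pairs passed limma's test (log2 differences of -0.88, -0.58 and 0.30).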
